A study of Mus musculus with 19 samples.

Results

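The solute carrier family 25 is the set of proteins that carry metabolites across the inner membrane of mitochondria, and its genes were taken here as every row of the deposited gene table whose symbol is Slc25a followed by a number, with pseudogenes left out. This gave 39 of 14707 genes, measured by RNA sequencing of hind-limb muscle in 19 mouse libraries. The aged obese group (n = 5) was 20 to 21 months old and was fed a high-fat diet (60% of kcal), and the aged lean group (n = 5) was of the same age on normal chow (12% of kcal as fat). The young obese group (n = 5) was 6 months old on the high-fat diet, and the young lean group (n = 4) was 6 months old on the chow. All mice were male, of a strain that the labels spell C657Bl/6J, and the labels record no transgene, drug or other agent. The labels name gastrocnemius as the muscle, while the design text of the series names tibialis anterior and a higher upper age for the aged mice; the labels were followed. Nothing states that each library came from a separate mouse, so p-values measure the spread between libraries, which may in part be technical. Library numbers are names in accession order and pair no libraries across groups.

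A carrier of this family typically exchanges a metabolite in the cytosol for another in the mitochondrial matrix, such as ADP for ATP, or phosphate with a proton. Muscle fibres depend on the exchange of ADP and ATP and on phosphate import for contraction, on the carnitine carrier for fat oxidation, and on the aspartate/glutamate and oxoglutarate carriers for the malate-aspartate shuttle that brings reducing equivalents into mitochondria. Some members sit elsewhere: Slc25a17 is in peroxisomes and Slc25a46 in the outer mitochondrial membrane. A few, including Slc25a34, have no settled substrate.

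Library totals ran between 15394000 and 17689000 in the authors' normalized read counts, with a median of 16254000. The 7 muscle fibre markers summed to between 2062000 and 2765000 in every library. None of these markers passed the test for a difference in any of the comparisons. Young lean library 1 stood apart: its log2 values correlated on average at 0.972 with its own group and at 0.9727 with the other groups. Young obese library 2 correlated at 0.9727 with its own group and at 0.9762 with the others. The lowest mean correlations of all 19 libraries were those of young obese library 3, at 0.9689 with its own group and 0.9601 with the others. Young lean library 1 held the highest value of its group in 18 of the 38 members that were tested, and young obese library 3 the lowest of its group in 20. Since young lean has only 4 libraries, each comparison with it is given with and without library 1. The comparisons share groups, so their results are not independent of each other. In these bulk samples, fewer cells of a type and less RNA per cell cannot be told apart.

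Read counts were divided by transcript length to compare members with each other. Slc25a4, the ADP/ATP carrier of heart and skeletal muscle (also known as ANT1), was the most abundant member. Its level per kilobase was 24190 ± 1658 in aged obese, 23940 ± 2602 in aged lean, 28600 ± 2353 in young obese and 24880 ± 4903 in young lean muscle (SD). Slc25a4 accounted for 52.4% of the summed level of the family per kilobase over all libraries. Slc25a3, the phosphate carrier, came next at 6378 per kilobase, followed by Slc25a11, the oxoglutarate/malate carrier, at 5560. These 3 genes held 77.0% of the summed level by median transcript length. They kept their ranks when the longest transcript of each gene was used for its length in place of the median length. The level of Slc25a11 was then 2502 per kilobase, beside 5868 for Slc25a3, so these levels and shares depend on the length used. Next in order were Slc25a39, a glutathione carrier, at 1501 per kilobase and Slc25a51, the NAD+ carrier, at 1409. Their places depend on the transcript models, because with the longest transcript Slc25a39 ranked 6 and Slc25a51 ranked 10. Slc25a12, the aspartate/glutamate carrier of muscle and brain known as aralar, ranked 6 at 1257 per kilobase by median length and ranked 4 by longest transcript. By median length 6 members lay above 1000 per kilobase, 17 between 100 and 1000, and 16 under 100, down to 2.53 for Slc25a53. By longest transcript Slc25a39, at 653.9, and Slc25a51, at 319.2, were under 1000, so these counts also depend on the length used.

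**Figure D1:**
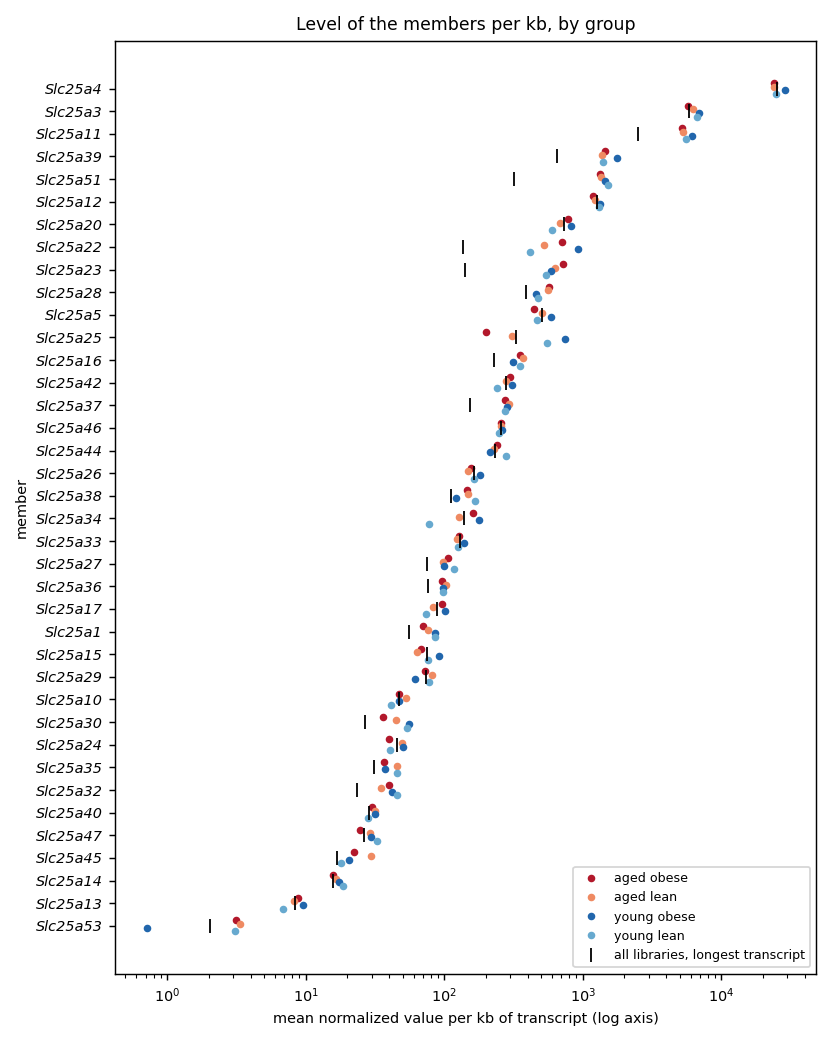
Level of 38 of the 39 Slc25a members per kilobase of median transcript length (log axis), with 1 point for the mean of each group, members ordered by their mean over all 19 libraries, and a black tick for that mean by the longest transcript. Slc25a4, at a mean of 25430, stands above Slc25a3 at 6378 and Slc25a11 at 5560, and Slc25a53 is lowest at 2.53.

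The values of the most abundant carriers overlapped between groups. Slc25a4 had 46978, 42324, 45321, 47080 and 51123 normalized counts in the aged obese libraries and 38188, 49319, 49638, 43956 and 49310 in the aged lean ones. In young obese muscle it had 58241, 55422, 47600, 54916 and 59074 normalized counts, and in young lean muscle 60486, 49759, 41325 and 40018. Young lean library 1 had the highest value of all 19, so young obese and young lean overlapped, and the limma adjusted p for that difference was 0.23 at a log2 difference of 0.22. Slc25a3 had 8117, 8229, 8348, 8300 and 9769 in aged obese and 7552, 9484, 10614, 9137 and 9808 in aged lean libraries. It had 11660, 9702, 8470, 10728 and 10198 normalized counts in young obese and 12441, 9305, 8941 and 8916 in young lean libraries. All 4 groups of Slc25a3 overlapped. Slc25a11 had 3846, 3592, 3802, 4065 and 4690 in aged obese and 3306, 4030, 4188, 4519 and 4440 in aged lean libraries. It had 5593, 4411, 3961, 4849 and 4947 in young obese and 5659, 4118, 3608 and 3718 in young lean libraries, and again the groups overlapped. Slc25a39 had 1157, 971, 965, 1087 and 1124 in aged obese and 983, 1000, 1104, 1005 and 933 in aged lean libraries. It had 1562, 1035, 1127, 1398 and 1388 in young obese and 1303, 964, 906 and 921 in young lean libraries, where library 1 was again the highest of its group and the ranges overlapped. Slc25a51 had 1400, 1443, 1366, 1291 and 1290 in aged lean and 1458, 1552, 1419, 1432 and 1459 in young obese libraries, and its values in the other groups are given with its test. Slc25a4, Slc25a3, Slc25a11 and Slc25a39 did not pass the test in any of the 6 comparisons, each of which was fitted with limma across 13367 genes and called at a Benjamini-Hochberg adjusted p under 0.05.

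Among all 38 tested members the spread between libraries of 1 group had a median SD of 0.20 on the log2 scale. It was lowest in Slc25a46, a regulator of the shape of mitochondria, at an SD of 0.07. It was highest in Slc25a25, a calcium-regulated ATP-Mg/phosphate carrier, at 0.73, followed by Slc25a13, the aspartate/glutamate carrier known as citrin, at 0.52. The remaining member, Slc25a53, averaged under the minimum of 10 normalized counts and was not tested. It had 0, 4.95, 9.03, 11.8 and 14.2 in the aged obese libraries, between 5.77 and 13.3 in aged lean, between 0 and 5.08 in young obese and between 5.71 and 9.72 in young lean libraries, so its young obese values lay below all young lean ones at these low levels.

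The comparison of young obese with young lean muscle asks what the diet rich in fat did to the carriers at 6 months. Slc25a34, Slc25a22, Slc25a17 and Slc25a42 rose, and Slc25a38 and Slc25a44 fell, which makes 6 of 38 members (15.8%) against 11.0% of all genes tested, 5.70% higher and 5.33% lower. The median log2 difference of the members was 0.13, with 26 positive and 12 negative, beside a median of 0.0078 over all genes. In 3 of the 38 tested members, Slc25a17, Slc25a22 and Slc25a38, the groups did not overlap, and 7.79% of all genes showed such a separation. At an unadjusted p under 0.05 there were 11 members, against 28.6% of all genes. By role, the changes fell in 1 of 7 carriers of adenine nucleotides and phosphate, 3 of 7 amino acid carriers, 1 of 10 carriers of coenzymes, nucleotides and glutathione, and 1 of 4 tested carriers of no settled substrate. None of the 6 members listed as carriers of di- and tricarboxylates or as related uncoupling-protein-like carriers passed the test. Neither of the mitoferrins and not the acylcarnitine carrier passed it.

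Slc25a34, a carrier of no settled substrate, showed the largest rise of the tested members. It had 632, 470, 329, 491 and 474 normalized counts in the young obese libraries, against 362, 132, 203 and 133 in the young lean ones. Only young lean library 1 reached into the young obese range, where it lay above the lowest library. The log2 difference was 1.30 (SE 0.27), a 2.47-fold higher level (limma, adjusted p = 0.00693), and without young lean library 1 it was 1.61 (adjusted p = 0.000313). Slc25a22, a glutamate carrier, had 754, 582, 459, 406 and 480 normalized counts in young obese muscle, against 336, 205, 233 and 198 in young lean muscle. Every young obese library lay above every young lean one. On the log2 scale the difference was 1.14 (SE 0.20), a 2.20-fold higher level (limma, adjusted p = 0.00321). Among the 38 tested members these had the largest log2 changes with the diet at this age, and leaving out any 1 of the 19 libraries removed neither call.

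The Slc25a34 promoter is shown because this gene had the largest rise of any tested member with the diet in young muscle. Promoters printed here run 5′ to 3′ along the strand of the gene over 250 bases before and 50 bases after a transcription start in RefSeq, on GRCm38.p6, an older build than that named by the submitters, and capitals mark a matched motif. In this window (chr4:141623785-141624084, minus strand) the capitals are AGGTCA, the hexamer read by nuclear receptors, on the opposite strand, with the first base at position -119 from the start.
Slc25a34: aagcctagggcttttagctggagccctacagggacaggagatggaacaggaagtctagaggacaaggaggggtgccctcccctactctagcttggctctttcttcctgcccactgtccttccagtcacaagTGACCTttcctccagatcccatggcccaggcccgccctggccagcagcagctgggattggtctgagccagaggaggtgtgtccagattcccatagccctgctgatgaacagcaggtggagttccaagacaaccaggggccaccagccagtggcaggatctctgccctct

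Among the carriers of coenzymes and nucleotides, Slc25a42, which carries coenzyme A into mitochondria, had 1055, 1051, 768, 950 and 1047 normalized counts in young obese libraries, against 835, 807, 722 and 664 in young lean ones. Young obese library 3 lay within the young lean range and the other 4 above it. The log2 difference was 0.36 (SE 0.10; limma, adjusted p = 0.0226), and leaving out young obese library 1 or 5 or young lean library 3 or 4 ended the call. Slc25a17, which carries coenzyme A and related nucleotides across the peroxisomal membrane, had 178, 177, 163, 151 and 208 normalized counts in young obese muscle, against 138, 107, 123 and 137 in young lean muscle. The groups did not overlap. The fitted difference on the log2 scale was 0.47 (SE 0.12; limma, adjusted p = 0.0155), and of the 19 runs that left out 1 library, the call was lost in that without young lean library 2 (adjusted p = 0.0627).

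The amino acid carriers that fell were Slc25a38 and Slc25a44. Slc25a38, a glycine carrier needed for haem synthesis, had 163, 198, 157, 168 and 162 normalized counts in young obese libraries, against 206, 203, 263 and 252 in young lean ones. All young obese libraries lay below all young lean ones, and the log2 difference was -0.44 (SE 0.12; limma, adjusted p = 0.0223). Slc25a44, a carrier of branched-chain amino acids known from brown fat, had 676, 868, 711, 714 and 710 normalized counts in young obese libraries, against 714, 989, 1013 and 1122 in young lean ones. The groups overlapped through young obese library 2 and young lean library 1, the libraries that correlated less with their own group than with the others. The log2 difference was -0.37 (SE 0.10; limma, adjusted p = 0.0252), and without those libraries it was -0.56 (adjusted p = 2.8e-05). The Slc25a38 call was lost without young obese library 5 or without young lean library 3 or 4, and that of Slc25a44 in 6 of the 19 runs that left out 1 library.

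Slc25a20, the carnitine/acylcarnitine carrier that brings fatty acids to beta-oxidation, came close to the threshold. It had 1753, 1407, 1090, 1604 and 1517 normalized counts in young obese muscle, against 1378, 1007, 1050 and 844 in young lean muscle, and the groups overlapped. In log2 values the groups differed by 0.47 (SE 0.15; limma, adjusted p = 0.0537). Slc25a39 had a log2 difference of 0.35 (adjusted p = 0.0592) and Slc25a5, the second ADP/ATP carrier (ANT2), one of 0.36 (adjusted p = 0.0671).

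The number of members called in this comparison rested on single libraries. Without young lean library 1 it was 14, beside 20.2% of all genes in that run, with none lost and Slc25a4, Slc25a5, Slc25a15, Slc25a16, Slc25a20, Slc25a27 and Slc25a39 among those gained, and it was 3 without young obese library 5 or without young lean library 3 or 4, beside 5.87% to 6.49% of all genes. When the fit held only the 2 groups compared, 1 member, Slc25a22, remained past the threshold, beside 1.30% of all genes.

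**Figure D2:**
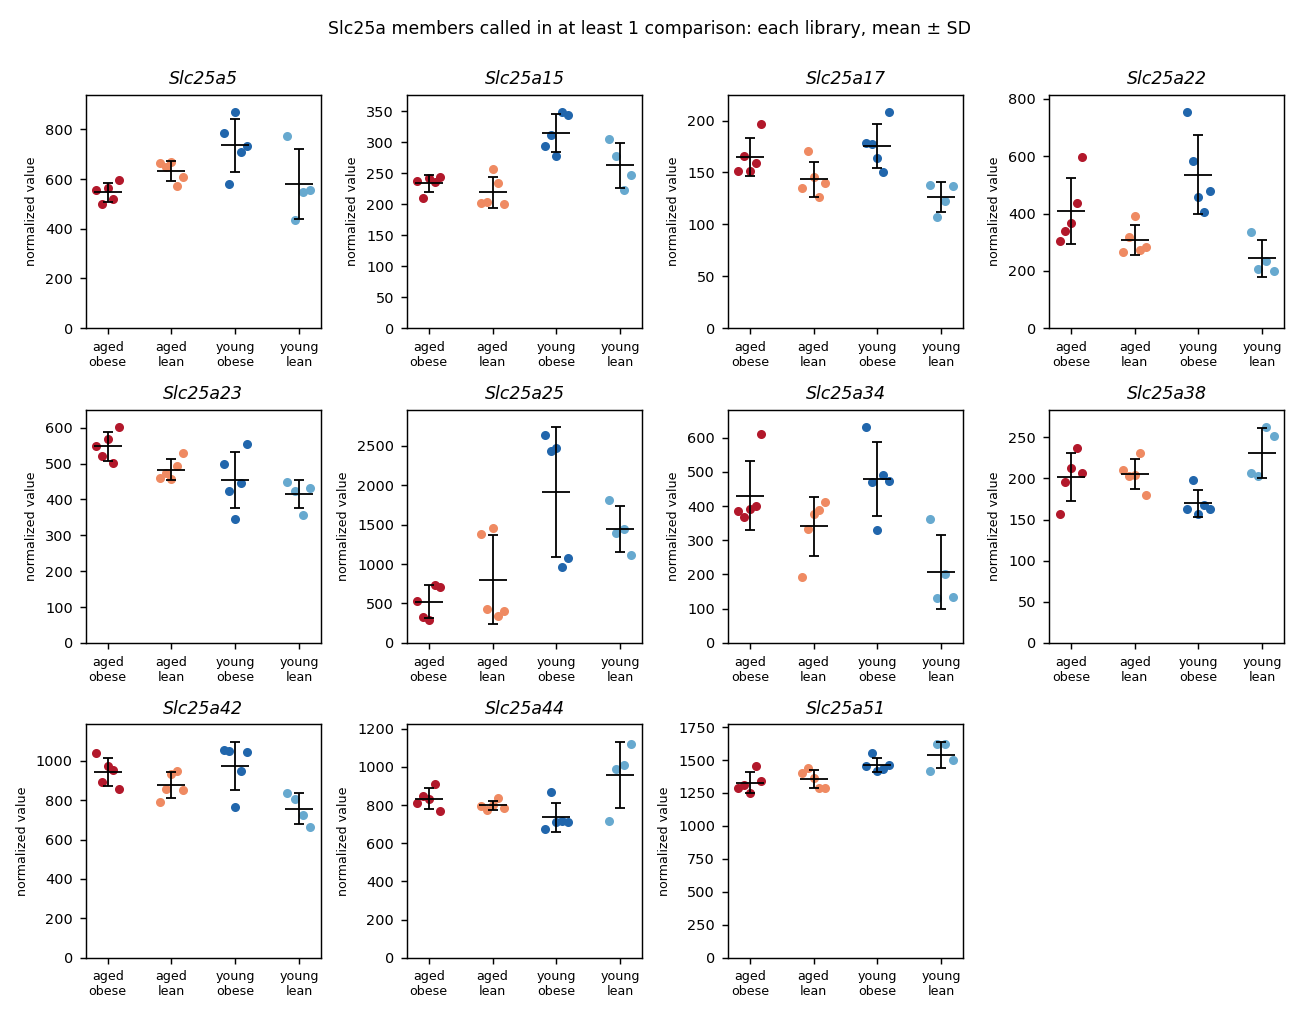
Normalized counts of the members that passed the limma test in at least 1 comparison, 1 panel a gene, with aged obese, aged lean, young obese and young lean libraries as points from left to right and the mean and SD of each group beside them. In Slc25a22 all young obese libraries (406 to 754) lie above all young lean ones (198 to 336), and in Slc25a25 all aged obese libraries (294 to 739) lie below all young obese ones (967 to 2641).

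Members of the carrier family that go by other names also moved in young obese muscle. Ucp3, an uncoupling protein of skeletal muscle, had 5424, 3551, 6553, 3870 and 3207 normalized counts in young obese libraries, against 3348, 1582, 1281 and 1034 in young lean ones, with young lean library 1 again inside the young obese range. Its log2 difference was 1.42 (limma, adjusted p = 0.00693), and that of Ucp2, its relative in many tissues, was 0.97 (adjusted p = 0.0343). Mtch1 and Mtch2, outer membrane relatives of the carriers, did not pass, so 2 of 4 rose. In the carnitine system, 2 of 6 genes rose: Cpt1a, a carnitine palmitoyltransferase of the outer membrane, by 1.23 on the log2 scale (adjusted p = 0.000468), and Acsl1, which activates fatty acids, by 0.51 (adjusted p = 0.0411). Of 6 enzymes of proline and ornithine metabolism, Aldh18a1, which makes the proline precursor, rose by 0.93 (adjusted p = 0.00972), while Prodh, which breaks proline down, fell by 1.15 (adjusted p = 0.00616) and Oat, ornithine aminotransferase, fell by 0.46 (adjusted p = 0.0493). In the import machinery of the carriers, 1 of 12 genes passed: Tomm70a, the outer membrane receptor for carrier precursors, fell by 0.25 (adjusted p = 0.026). None of the 15 ATP synthase genes, 3 outer membrane channels and 4 enzymes of the malate-aspartate shuttle passed. Of 12 genes for mitochondrial pyruvate and calcium transport none passed, and of 9 sideroflexins and mitochondrial ABC transporters Abcb8 rose by 0.29 and Abcb6 fell by 0.43.

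Markers of other cells moved in the same comparison. Of 6 tendon markers 4 rose in young obese muscle, with summed levels of 1869 to 4849 in young obese, against 517.8 to 1055 in young lean libraries. Of 6 markers of fibro-adipogenic progenitors, the connective tissue cells of muscle, 3 rose, with sums of 13410 to 19590 in young obese, against 10260 to 14910 in young lean libraries. Of 7 adipocyte, 6 macrophage and 3 neutrophil markers none passed. Of 3 genes listed as brown adipocyte markers 1, Cidea, rose, and whether such cells changed was not tested. Of 5 endothelial markers 1, Cdh5, rose, with sums of 5029 to 6314 in young obese, against 4227 to 5862 in young lean libraries. Of 7 tested erythroid markers none passed, with sums between 19360 and 143600 in young obese and between 22350 and 53200 in young lean libraries, where Ahsp was at 0 in some libraries. The part of these cells in the carrier values was not tested.

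In aged obese against aged lean muscle, the same diet contrast at 20 to 21 months, no member passed the test. The count was 0 of 38, beside 0.292% of all genes, 0.135% higher and 0.157% lower, so it does not set the members apart. At an unadjusted p under 0.05 there was 1 member, Slc25a35, whose log2 difference of -0.32 had a limma adjusted p of 0.35, against 11.4% of all genes. The log2 differences ran between -0.43 and 0.39, with 17 positive and 21 negative, and their median was -0.03, beside 0.003 over all genes. In no member did the groups fail to overlap, which 3.68% of all genes did. Slc25a22 had 305, 338, 368, 437 and 598 normalized counts in aged obese libraries, against 267, 317, 393, 272 and 285 in aged lean ones. The ranges overlapped, with a log2 difference of 0.39 (limma, adjusted p = 0.451). Slc25a34 had 386, 367, 391, 401 and 610 normalized counts in aged obese libraries, against 194, 333, 378, 389 and 410 in aged lean ones. Aged obese library 5 was the highest and aged lean library 1 the lowest, the other libraries lay between 333 and 410, and the log2 difference of 0.36 did not pass (adjusted p = 0.64). None of the lists of other mitochondrial transport genes had a called member here, while 4 of 7 slow fibre markers rose, with sums of 22290 to 64820 in aged obese, against 10310 to 22550 in aged lean libraries. The part of fibre type in the carrier values was not tested.

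The interaction, which is the diet difference in aged muscle minus that in young muscle, also gave no call among the members, beside 2.98% of all genes, 1.29% higher and 1.69% lower. The log2 interaction was -0.94 for Slc25a34 (adjusted p = 0.138), -0.75 for Slc25a22 (adjusted p = 0.12), -0.58 for Slc25a5 (adjusted p = 0.0701), 0.43 for Slc25a44 (adjusted p = 0.0809) and 0.40 for Slc25a38 (adjusted p = 0.145). So a diet difference that passed in young and not in aged muscle was not shown to differ between the ages. The interaction was negative in 29 of 38 members, with a median of -0.15 beside -0.0022 over all genes, and 6 members had an unadjusted p under 0.05, against 22.9% of all genes. Without young lean library 1, 5 members passed: Slc25a5, Slc25a22, Slc25a27, Slc25a34 and Slc25a44, beside 12.9% of all genes in that run. Without young obese library 2, 2 passed, beside 9.78%. Cpt1a passed with all libraries, at -0.96 (limma, adjusted p = 0.02). Among the other lists, 2 of 6 tendon, 2 of 6 progenitor and 1 of 6 macrophage markers passed below 0, as did 1 of 6 proline and ornithine enzymes. Above 0, 1 of 7 slow fibre markers passed. The part of these cells in the carrier values was not tested.

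**Figure D3:**
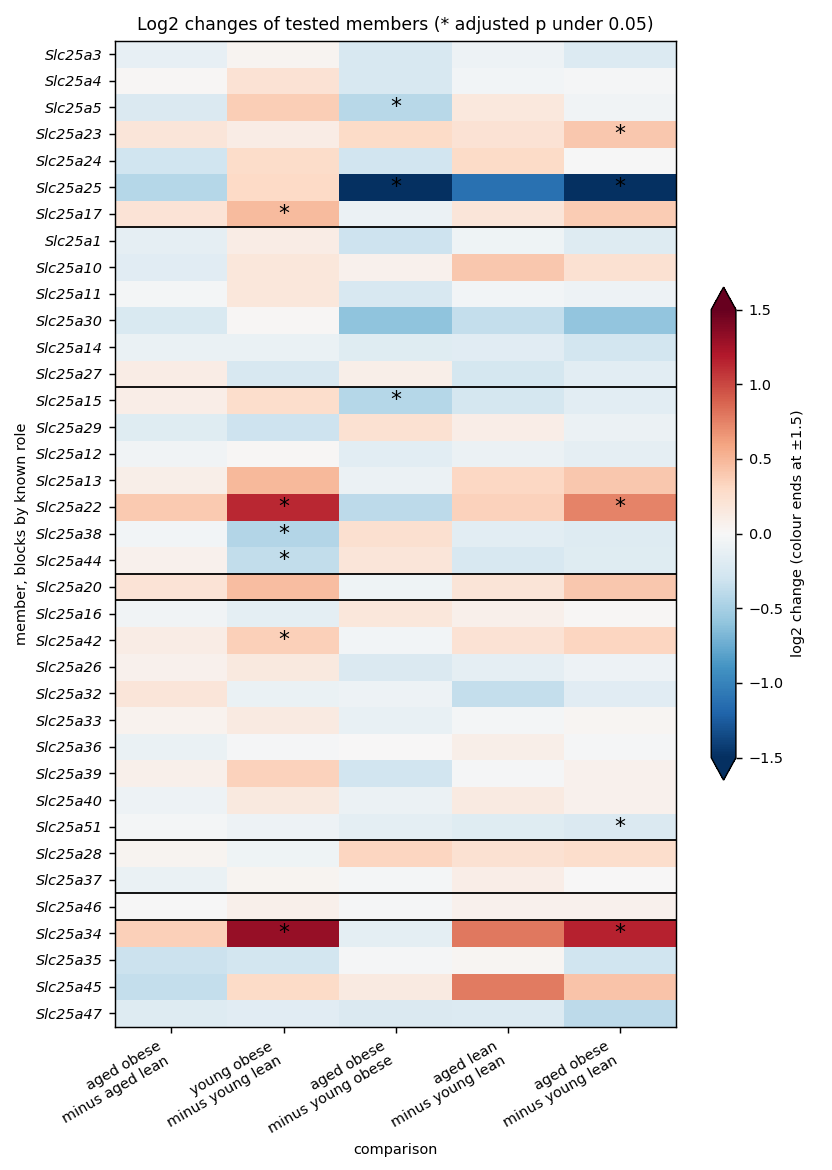
Log2 difference of 37 of the 38 tested members (down the page, in blocks by known role) in the 5 pairwise comparisons (across), as a colour scale that ends at 1.5 in either direction, with red above 0 and blue below; an asterisk marks a limma adjusted p under 0.05. Young obese minus young lean has 4 members called above 0 and 2 below, aged obese minus young obese has 3 below, and aged obese minus aged lean has none.

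Age within the lean diet gave no call either. In aged lean against young lean muscle 0 of 38 members passed the test, beside 4.08% of all genes, 2.09% higher and 1.99% lower. At an unadjusted p under 0.05 there were 9 members, against 21.0% of all genes, and 19 log2 differences were positive and 19 negative. The lowest adjusted p was that of Slc25a51 (log2 difference -0.18, adjusted p = 0.0888), followed by Slc25a34 (0.79, adjusted p = 0.0947). In 1 member, Slc25a23, a calcium-regulated ATP-Mg/phosphate carrier, the groups did not overlap (6.46% of all genes). Slc25a23 had 460, 475, 457, 494 and 530 normalized counts in aged lean libraries, against 449, 424, 358 and 432 in young lean ones, a log2 difference of 0.22 that did not pass (adjusted p = 0.24). Without young lean library 1, Slc25a27, Slc25a32, Slc25a34, Slc25a44 and Slc25a51 passed, beside 9.50% of all genes in that run, and without aged lean library 1, 1 member did, beside 2.43%.

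In aged obese against young obese muscle, the age contrast on the diet rich in fat, Slc25a25, Slc25a15 and Slc25a5 fell and no member rose. The 3 members are 7.89% of 38, beside 9.02% of all genes, 4.16% higher and 4.86% lower. The median log2 difference was -0.10, with 28 of 38 members negative, beside -0.0006 over all genes, and 15 members had an unadjusted p under 0.05, against 26.4% of all genes. The groups did not overlap in 2 members, Slc25a15 and Slc25a25, as in 8.66% of all genes.

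Slc25a25 showed the largest log2 difference among the 38 tested members in the 5 comparisons between groups. This carrier exchanges ATP-Mg for phosphate and so sets the adenine nucleotide content of the matrix in response to calcium. It had 537, 327, 294, 739 and 713 normalized counts in aged obese libraries, against 2641, 2433, 2471, 967 and 1074 in young obese ones. All aged obese libraries lay below all young obese ones, although young obese libraries 4 and 5 were well under the other 3. In log2 units the difference was -1.85 (SE 0.41), a level of 0.278 times that in young obese muscle (limma, adjusted p = 0.00915), and it kept its call in all 19 runs that left out 1 library. In aged lean muscle Slc25a25 had 1384, 426, 1463, 348 and 399 normalized counts, against 1817, 1396, 1441 and 1110 in young lean muscle. The aged lean libraries split into 2 high and 3 low values, the high ones within the young lean range, and the log2 difference of -1.12 (SE 0.44) did not pass (adjusted p = 0.147).

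Slc25a15, which exchanges ornithine and citrulline, had 238, 211, 242, 236 and 243 normalized counts in aged obese muscle, against 294, 311, 278, 349 and 344 in young obese muscle. The groups did not overlap, and the log2 difference was -0.43 (SE 0.10; limma, adjusted p = 0.0102), again called in all 19 such runs. In the lean groups Slc25a15 averaged 219 ± 25.4 (SD) in aged and 263 ± 36.1 in young muscle, so its aged obese mean of 234 was not below aged lean. Slc25a5 had 555, 500, 563, 521 and 598 normalized counts in aged obese libraries, against 786, 580, 870, 710 and 735 in young obese ones. Young obese library 2 lay within the aged obese range and the other 4 above it. The log2 difference was -0.42 (SE 0.12; limma, adjusted p = 0.0344), the call was lost in 8 of the 19 runs. A pseudogene of Slc25a5 is named in the GENCODE annotation, and how reads that match both were counted is not stated, so its values may include or lack such reads. Slc25a28 (0.33, adjusted p = 0.0613), the mitochondrial iron importer mitoferrin 2, and Slc25a26 (-0.22, adjusted p = 0.0727), the carrier of S-adenosylmethionine, came closest among the rest. The number called was 5 without young lean library 1, beside 12.5% of all genes, and also 5 without young obese library 2, beside 14.1%.

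The promoters of Slc25a25 and Slc25a15 are shown because these were the members whose fall held in all 19 runs. For Slc25a25 (1 of 3 starts, chr2:32424017-32424316, minus strand) the capitals mark TGACGTCA, the cyclic AMP response element, at position -150. For Slc25a15 (1 of 2 starts, chr8:22398228-22398527, minus strand) they mark CACGTG, an E-box, at position -77. In both genes the window printed is the only one with a match, and the windows at the other starts held none of the searched motifs. The windows of Slc25a22, whose rise in young obese muscle also held in all 19 runs, had no match and are not printed.
Slc25a25: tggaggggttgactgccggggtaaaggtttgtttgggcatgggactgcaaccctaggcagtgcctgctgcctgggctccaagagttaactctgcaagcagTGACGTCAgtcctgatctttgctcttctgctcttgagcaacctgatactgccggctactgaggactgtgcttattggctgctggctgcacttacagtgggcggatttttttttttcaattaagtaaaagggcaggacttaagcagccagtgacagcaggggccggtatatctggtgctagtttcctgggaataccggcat
Slc25a15: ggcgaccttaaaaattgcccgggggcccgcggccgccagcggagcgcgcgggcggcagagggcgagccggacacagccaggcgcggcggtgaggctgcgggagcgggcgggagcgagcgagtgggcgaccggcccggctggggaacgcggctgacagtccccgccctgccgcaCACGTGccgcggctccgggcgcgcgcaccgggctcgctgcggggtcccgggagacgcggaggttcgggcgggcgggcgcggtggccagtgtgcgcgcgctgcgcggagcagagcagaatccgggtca

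Other genes around these carriers moved in the same comparison. Of 6 proline and ornithine enzymes Aldh18a1 fell by 1.13 (adjusted p = 0.00166) and Pycr1, which makes proline, fell by 0.62 (adjusted p = 0.0207). Among carriers under other symbols Ucp3 fell by 1.26 on the log2 scale (adjusted p = 0.00848), and in the carnitine system Cpt1a fell by 0.62 (adjusted p = 0.01). Of the 12 pyruvate and calcium transport genes, Mpc2, a subunit of the pyruvate carrier, fell by 0.36 and Micu2, a regulator of the calcium uniporter, rose by 0.29. Tendon markers fell in 5 of 6 genes, with sums of 350.8 to 1323 in aged obese, against 1869 to 4849 in young obese libraries, and progenitor markers in 3 of 6, with sums of 10610 to 13330 in aged obese, against 13410 to 19590 in young obese libraries. Slow fibre markers rose in 2 of 7. Of 3 genes listed as brown adipocyte markers, Cox7a1 fell and 2 did not pass, and whether such cells changed was not tested. The part of any of these cells in the carrier values was not tested.

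Aged obese and young lean muscle differ in both age and diet. Slc25a34, Slc25a22 and Slc25a23 were higher and Slc25a25 and Slc25a51 lower in aged obese muscle, 5 of 38 members (13.2%), beside 5.58% of all genes, 3.25% higher and 2.33% lower. The median log2 difference was -0.04, beside -0.0047 over all genes, and 12 members had an unadjusted p under 0.05, against 21.3% of all genes. The groups did not overlap in 7 members (8.93% of all genes). These were Slc25a17, Slc25a23, Slc25a28, Slc25a34 and Slc25a42 above, and Slc25a25 and Slc25a47, a carrier known from liver, below. Slc25a34 differed by 1.15 on the log2 scale (SE 0.27; limma, adjusted p = 0.0164), with every aged obese library (367 to 610) above every young lean one (132 to 362). Slc25a22 differed by 0.74 (SE 0.20; adjusted p = 0.0353), and young lean library 1 at 336 lay within the aged obese range. Slc25a25 differed by -1.54 (SE 0.44; adjusted p = 0.0425).

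Slc25a23 had 548, 520, 569, 500 and 603 normalized counts in aged obese muscle, against 449, 424, 358 and 432 in young lean muscle. All aged obese libraries were above all young lean ones, with a log2 difference of 0.40 (SE 0.11; limma, adjusted p = 0.0316). Slc25a51 had 1287, 1309, 1250, 1456 and 1341 in aged obese muscle, against 1417, 1621, 1621 and 1501 in young lean muscle. Aged obese library 4 lay above the lowest young lean library, and the log2 difference was -0.21 (SE 0.06; limma, adjusted p = 0.0422). The Slc25a51 call was lost in 11 of the 19 runs that left out 1 library, and that of Slc25a25 in 7. Those of Slc25a22 and Slc25a23 were lost in 6 each, and that of Slc25a34 in 2. Leaving out single libraries moved the number called in this comparison: it was 0 without young lean library 2, 1 without aged obese library 3 or without young lean library 3 or 4, and 2 without aged obese library 1, 2 or 5, where 3.26% to 4.38% of all genes were called. Without young lean library 1 it was 8, beside 8.06% of all genes in that run, with Slc25a25 lost and Slc25a17, Slc25a20, Slc25a42 and Slc25a44 gained. Cpt1a was higher by 0.61 on the log2 scale (adjusted p = 0.0216), Micu2 by 0.34 (adjusted p = 0.0114), Prodh was lower by 1.02 and Abcb6 lower by 0.33. Of the markers, 2 of 7 slow fibre genes were higher, with sums of 22290 to 64820 in aged obese, against 14920 to 28660 in young lean libraries. Of 3 neutrophil markers 2 were lower, with sums of 10.18 to 23.74 in aged obese, against 73 to 615.2 in young lean libraries. Of 7 adipocyte markers 1, Lep, was higher, with sums of 3586 to 7515 in aged obese, against 2725 to 6151 in young lean libraries. Of 3 genes listed as brown adipocyte markers 1, Cidea, was higher, and whether such cells changed was not tested. The part of these cells in the carrier values was not tested.

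Promoter windows like those printed above were matched in RefSeq for 30 of the 39 members, 39 windows in all, and both strands were searched. TNAAGGTCA, the oestrogen-related receptor element, was in none of the 39 windows, against 1.28% of all 32851 windows. The direct repeat of AGGTCA with a spacer of 1 base, read by PPAR and its partner, was in none either, against 0.0396%. AGGTCA, which both of these contain, was in 4 windows, those of Slc25a34, Slc25a39, Slc25a45 and Slc25a47 (10.3%, against 16.3% of all). TGACGTCA was in 2, those of Slc25a25 and Slc25a36 (5.13%, against 1.79%), and TGACG, which it contains, in 12 (30.8%, against 20.8%). CACGTG was in 7 windows of 6 members, namely Slc25a1, Slc25a13, Slc25a14, Slc25a15, Slc25a33 and Slc25a36 (17.9%, against 7.15%). The element of nuclear respiratory factor 1 was in 1, Slc25a3 (2.56%, against 4.60%). AGGTCA, TGACGTCA and TGACG were added after the values had been seen. A match is a description of these letters and not of binding.

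Ratios within a library compare related carriers without regard to library scaling, and they are given as descriptions with no test. How often the ratios of other gene pairs separate groups was not counted. Slc25a4 over Slc25a5, the muscle ADP/ATP carrier over its more widely expressed relative, had a log2 ratio of 6.41 ± 0.06 in aged obese, 6.18 ± 0.19 in aged lean, 6.23 ± 0.29 in young obese and 6.38 ± 0.31 in young lean muscle (SD), and per kilobase the level of Slc25a4 was 50.2 times that of Slc25a5. Slc25a20 over Slc25a3, the acylcarnitine carrier over the phosphate carrier, was -2.61 ± 0.09 in aged obese against -2.94 ± 0.10 in aged lean muscle, and -2.79 ± 0.09 in young obese against -3.22 ± 0.13 in young lean muscle. Here the obese libraries lay above the lean ones at each age without overlap. The lowest aged obese ratio was -2.71 against the highest aged lean at -2.83, and the lowest young obese was -2.96 against the highest young lean at -3.09. Slc25a20 by itself overlapped between the diets at each age and was called at neither, with a log2 difference of 0.21 in aged muscle. Slc25a15 over Slc25a29, the ornithine carrier over a carrier of basic amino acids, was 0.71 ± 0.16 in aged obese and 1.37 ± 0.20 in young obese muscle. No aged obese library (0.50 to 0.95) reached the young obese range (1.15 to 1.60). The ratio was 0.43 ± 0.19 in aged lean and 0.79 ± 0.40 in young lean muscle, where the libraries (0.35 to 1.32) reached into both obese ranges. Slc25a15 by itself also did not overlap between aged obese and young obese muscle. Slc25a25 over its relative Slc25a24 was 1.83 ± 0.63 in aged obese, 1.96 ± 0.99 in aged lean, 3.39 ± 0.86 in young obese and 3.37 ± 0.25 in young lean muscle. Slc25a12 over Slc25a13, aralar over citrin, averaged between 8.11 in aged obese and 8.65 in young lean muscle, with per-kilobase levels 148 times apart. Slc25a37 over Slc25a28, mitoferrin 1 over mitoferrin 2, lay near 0 in every group, at -0.09 ± 0.09 in aged obese, 0.05 ± 0.30 in aged lean, 0.27 ± 0.39 in young obese and 0.17 ± 0.27 in young lean muscle.

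**Figure D4:**
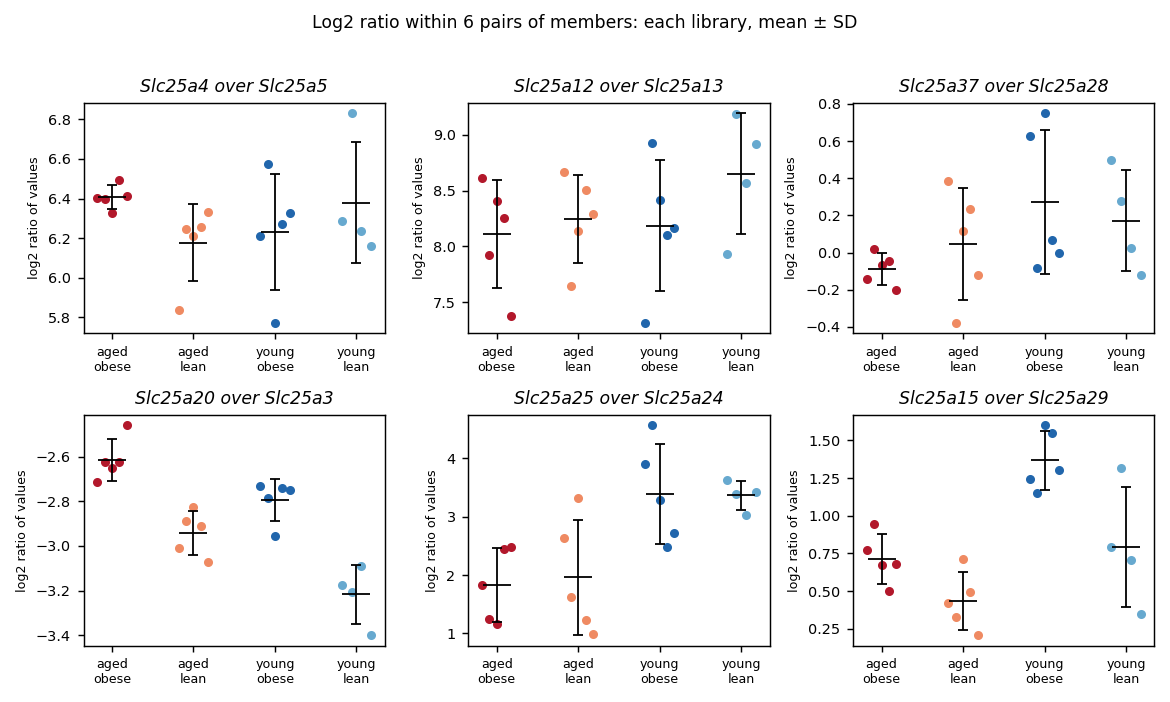
Log2 ratio of the normalized counts of 6 pairs of carriers in each library, 1 panel a pair, with aged obese, aged lean, young obese and young lean from left to right. For Slc25a20 over Slc25a3 the aged obese ratios (from -2.71) lie above the aged lean ones (to -2.83) and the young obese (from -2.96) above the young lean ones (to -3.09). The ratios were not tested, and Slc25a20 by itself overlapped between the diets at each age.

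The members described next did not pass in any comparison. Slc25a1, the citrate carrier, had a mean of 83 ± 23 (SD) in aged obese muscle, against 90 ± 17.2 in aged lean muscle. Slc25a10, the dicarboxylate carrier, averaged 95.1 in aged obese, 106 in aged lean, 95.5 in young obese and 83.4 in young lean libraries. Slc25a32, which serves folate and flavin transport, averaged 137 in aged obese, 120 in aged lean, 144 in young obese and 157 in young lean libraries, and the pyrimidine nucleotide carriers Slc25a33 and Slc25a36 stayed between 231 and 261 and between 392 and 419 in their group means. Slc25a40, the relative of the glutathione carrier Slc25a39, had group means between 73.8 and 82.3. Slc25a14, Slc25a27 and Slc25a30, relatives of the uncoupling proteins, ranged in their group means between 26.2 and 31.1, 204 and 247, and 72.9 and 112. Slc25a16 averaged between 656 and 768, and Slc25a45 between 34.5 and 56.7. Genes with a listed role that have no row in the table, such as Slc25a31 and Slc25a18, were not analysed here.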

How the data were processed

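RNA was sequenced from muscle in 19 libraries, single-end per the labels' protocols, with low-integrity RNA left out. The deposited table holds the authors' normalized signal per gene and library, called normalized counts here; how it was scaled is not stated. Per the submitters' processing notes, STAR 2.78a, DESeq2, Partek and mm39 were used, with no role or order stated; annotation, strand setting and treatment of shared reads: not given in the sources used here. A single read was worth 0.903 to 1.09 deposited units, but only 85.2 to 86.3% of low values came out as whole reads within 0.02 read, so no count test was run; depth is about 15100000 to 17900000 reads by that estimate.

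Genes with a mean of at least 10 (13367 of 14707; 1340 left out) were put on the scale log2(value + 1), and limma 3.58.1 (R 4.3.3) fitted 4 group means in 1 model with trended variance; fold changes on that scale understate those of low genes. Adjusted p-values are Benjamini-Hochberg over all genes of a comparison, in 6 comparisons, at 0.05. The script was tested on simulated data. Alternatives were other pseudocounts, filters, scalings (TMM among them), library weights, variance settings, groups in the fit and libraries left out. Levels per kilobase used GENCODE M21 transcripts (GRCm38).

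Members and lists were chosen with earlier results of these data known. For members called in a comparison, values are given in the libraries of the groups compared. For the members highest per kilobase they are given in every library. Of other lists, counts and up to 4 genes are given. The values of 1 member and 1 marker gene are not reported here. Protein sequences were not used here.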

Additional observations from a re-analysis of the deposited data

Results flagged for a closer look

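A library counted as standing apart where its gap to the nearest value exceeded Dixon's 95% limit within its group. This held in 9 of 156 groups of member values, and chance flags about 1 in 20. Aged obese library 5 was far above the rest of its group in 3 members: Slc25a3 at 9769 normalized counts (nearest 8348), Slc25a20 at 1775 (nearest 1347) and Slc25a34 at 609.6 (nearest 400.9). Aged obese library 2 was far below in Slc25a15 at 210.7 (nearest 236.3) and in Slc25a45 at 32.64 (nearest 44.25). Young obese library 2 was far above in Slc25a38 at 197.8 (nearest 168.2) and in Slc25a44 at 867.7 (nearest 714.2), both called lower in young obese muscle. Young lean library 1 was far above in Slc25a3 at 12440 (nearest 9305) and in Slc25a39 at 1303 (nearest 963.9). No interaction between diet and age passed among the members.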

How the results depend on the processing

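No paired analysis was possible because library numbers were given in accession order and pair no libraries across groups. No member called in a comparison changed direction in it under any alternative run; members that were not called were not followed in this way. For young obese minus young lean, 6 members were called, with 15 under library weights, 16 with young lean 1 and young obese 2 left out, 3 without young lean 3 and young obese 3, 1 with only the groups compared, and 3 to 14 when leaving out 1 library. For aged obese minus aged lean the number was 0 throughout (0 to 0 when leaving out 1 library). For aged lean minus young lean it was 0, with 5 under library weights, 6 with the same pair left out, and 0 to 5 when leaving out 1 library. For aged obese minus young obese it was 3, with 11 under library weights, 7 with that pair left out, and 2 to 5. For aged obese minus young lean it was 5, with 9 under library weights, 8 with that pair left out, 2 without young lean 3 and young obese 3, 2 with no mean-variance trend, 3 with only the groups compared, and 0 to 8. For the interaction it was 0, with 8 under library weights, 8 with that pair left out, and 0 to 5. The cause was not tested. Other pseudocounts, no filter and TMM scaling left the counts as they were, and no scaling moved the median of all genes by over 0.1. Over all genes, young obese minus young lean had 1475 calls, with 668 to 2695 when leaving out 1 library and 174 to 3421 under the other settings; aged obese minus aged lean had 39, with 6 to 70 and 22 to 169; aged lean minus young lean had 545, with 283 to 1270 and 130 to 1565; aged obese minus young obese had 1206, with 723 to 1891 and 787 to 2840; aged obese minus young lean had 746, with 436 to 1078 and 388 to 1711; the interaction had 398, with 112 to 1723 and 134 to 2694. Depth limits Slc25a53, Slc25a13 and Slc25a14 most.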

Other observations

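Slc25a34 was set beside genes chosen for the likeness of their values to it across the 19 libraries, so that likeness is no finding. The choice was made among 10870 other genes with a mean of at least 50. Plin5 ranked 1 and Cd36 ranked 3. They were picked from the list for their link to fat use, and other genes on it, such as Fgf1 at rank 7, are not shown. Plin5, which coats lipid droplets in muscle, had 433, 456, 626, 572 and 744 normalized counts in aged obese libraries, against 241, 506, 520, 436 and 506 in aged lean ones. It had 932, 634, 416, 657 and 776 in young obese libraries, against 565, 155, 298 and 171 in young lean ones. By that choice, as with Slc25a34, aged obese library 5, aged lean library 1, young obese library 3 and young lean library 1 were each the highest or lowest of their group. Cd36, a fatty acid importer of the cell surface, had 5834, 3814, 4483 and 3957 in young lean libraries, with library 1 again highest. No test was made of this likeness.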
